A study of Rattus norvegicus with 8 samples.

Results

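Kainate receptors and delta receptors are 2 of the families of ionotropic glutamate receptor. The genes described here are the 5 kainate subunits Grik1, Grik2, Grik3, Grik4 and Grik5 and the delta subunit Grid1. They were taken by gene symbol, and all 6 were found among the 17168 genes listed for each library. RNA was sequenced from homogenates of the medial prefrontal cortex of male Sprague-Dawley rats, an outbred laboratory strain. The HI group was 4 libraries from rats with high motor impulsivity, and the LI group was 4 libraries from rats with low motor impulsivity. Motor impulsivity was scored by premature responses in a serial reaction time task with 1 choice (the 1-CSRT task), in which the animal must wait for a cue before it responds; the HI animals were those in its upper quartile, and the LI animals those in its lower quartile. No drug, surgery or genetic change is named in the labels, and ages are not given. The labels do not say that each library is a separate animal, so the p-values measure the spread between these libraries, which may in part be technical.

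Kainate receptors are cation channels of 4 subunits that open when glutamate binds. Grik1, Grik2 and Grik3 encode GluK1, GluK2 and GluK3, which can form channels on their own and bind kainate with lower affinity. Grik4 and Grik5 encode GluK4 and GluK5, which bind kainate with high affinity and need a partner from the first set to make a working channel. In cortex these receptors act on both sides of the synapse, where they carry slow excitatory currents and adjust the release of glutamate and GABA. Grid1 encodes GluD1, which belongs to the glutamate receptors by sequence but works mainly as a synapse organiser, bound outside the cell by cerebellins that bridge it to presynaptic neurexins.

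None of the 6 subunit genes differed between HI and LI beyond the spread between libraries. The nearest was Grik3, with a mean of 70.9 CPM in HI and 50.9 CPM in LI (read counts scaled to the size of each library, as adjusted by the TMM method). Grik2 was also higher on average in HI, by a smaller amount. The means of Grik1, Grik4, Grik5 and Grid1 lay close together in the 2 groups. Grik5, by far the most abundant of the 6, was 2.23-fold higher in its highest library than in its lowest, as was Grik3. Each was low in 1 HI and 1 LI library, HI4 and LI3 for Grik5 and HI1 and LI1 for Grik3.

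By edgeR's quasi-likelihood test with Benjamini-Hochberg adjustment over 11631 genes, 0 of the 6 subunit genes passed an adjusted p of 0.1, where 0% of all genes tested did. At an unadjusted p under 0.05 there were 0 of 6, against 4.16% of all genes tested. DESeq2 also called 0 of the 5 subunit genes for which it gave an adjusted p, while it called 0.403% of the 7440 genes for which it gave one. HI lay wholly above LI in 0 of 6 subunit genes, against 2.31% of all genes, and wholly below in 0 of 6, against 1.14%. The log2 fold change, HI minus LI, was above 0 in 3 of 6 and below 0 in 3 of 6, against 48.5% and 51.5% of all genes. Its median was 0.014 over the 6 subunit genes and -0.0069 over all genes tested.

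**Figure D1:**
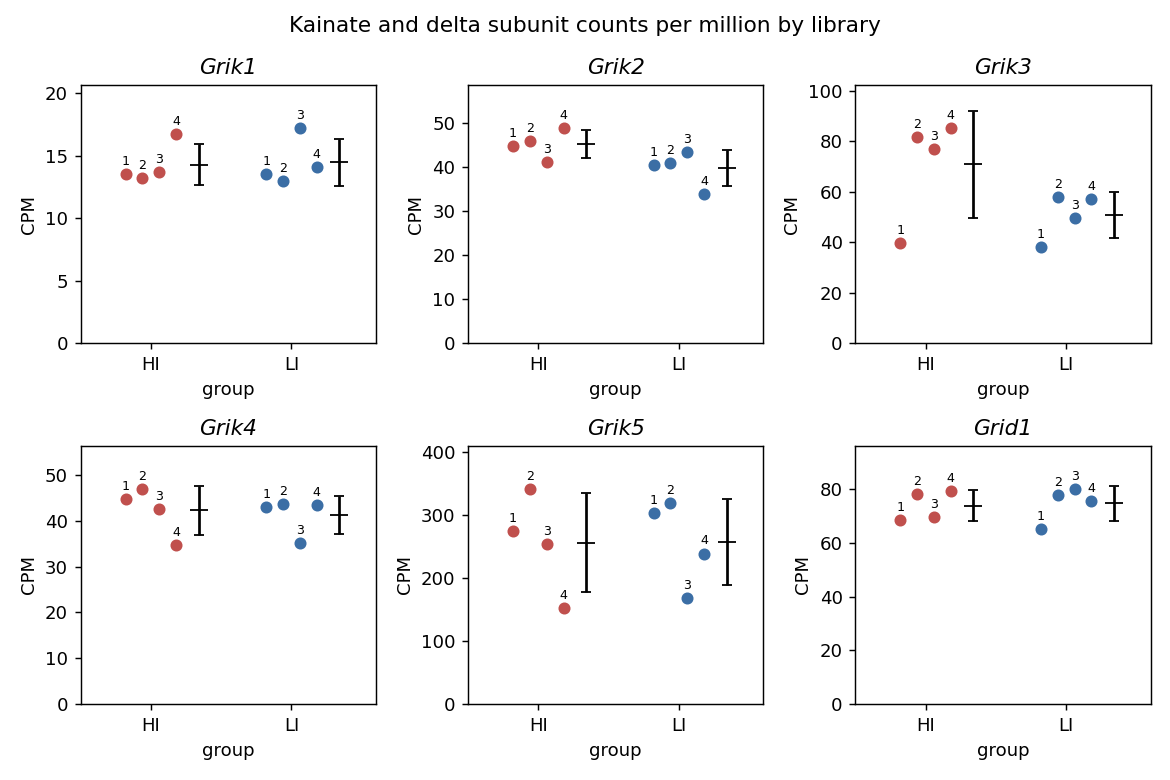
CPM of each subunit gene in each library, with HI left of LI in every panel; numbers beside points are the replicate numbers of the titles, and the bar to the right of each set of points is the mean ± SD (n = 4). HI and LI libraries overlap in every panel, and the spread within a group is widest for Grik3 and Grik5, where HI4 and LI3 hold the lowest Grik5 values.

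The libraries held between 7354416 and 9476656 counts. Ribosomal RNA took 0.406% of the counts in HI4 and 0.418% in LI3, and from 1.37% to 25.5% in the other 6 libraries. LI2 stood apart in white matter and striatal genes. The 5 oligodendrocyte marker genes summed to 1765 to 1937 CPM in the HI libraries, against 5902 CPM in LI2 and 1503 to 3136 CPM in the other LI libraries. The 5 striatal marker genes summed to 121 to 163 CPM in HI, against 502 CPM in LI2 and 139 to 153 CPM in the other LI libraries. The 4 excitatory cortical neuron genes Slc17a7, Tbr1, Neurod6 and Camk2a were all present. They summed to between 2707 and 3381 CPM in HI and between 2593 and 3059 CPM in LI. Their presence cannot tell the medial prefrontal part from other cortex. The 4 microglial genes summed to 154 to 173 CPM in HI and 178 to 193 CPM in LI, without overlap. Taken singly, Cx3cr1, Csf1r and P2ry12 overlapped, and only Aif1 lay wholly lower in HI, as did 1.14% of all genes tested. The part of the microglial genes in the results was not tested. The groups overlapped in the sums of the other marker lists: 115 to 186 CPM in HI and 116 to 145 CPM in LI for 3 oligodendrocyte precursor genes, 71.9 to 113 CPM and 72.7 to 101 CPM for 4 endothelial genes, 31.0 to 415 CPM and 13.5 to 76.0 CPM for 4 meningeal and fibroblast genes, highest in HI1, and 0.399 to 6.51 CPM and 0.729 to 1.26 CPM for 3 choroid plexus genes, of which Ttr and Folr1 were at or near 0. In a homogenate, fewer cells of a type and less RNA per cell cannot be told apart.

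Between genes, levels are compared in TPM, the authors' values of transcript abundance corrected for transcript length. Grik5 came first at 143 ± 36.9 TPM (SD over the 8 libraries), and lay above every other subunit gene in 8 of 8 libraries. Grid1 followed at 44.0 ± 3.65 TPM, then Grik3 at 35.4 ± 10.7 TPM. Grik2 stood at 29.2 ± 3.18 TPM and Grik4 at 26.4 ± 2.75 TPM. Grik1 was lowest at 9.36 ± 1.08 TPM, and lay below Grik4 in 8 of 8 libraries.

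The middle of this order was not firm. Grid1 lay above Grik3 in 5 of 8 libraries, 1 of 4 HI and 4 of 4 LI. Grik3 lay above Grik2 in 5 of 8 libraries, 3 of 4 HI and 2 of 4 LI. Grik2 lay above Grik4 in 7 of 8 libraries, 4 of 4 HI and 3 of 4 LI. The ranges of these neighbours overlap, so only the places of Grik5 and Grik1 are set apart by more than the spread between libraries.

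The upstream sequences of Grik3 and Grik2 are shown because these are the 2 genes whose difference kept its direction in all 23 alternative analyses. Each run is the 250 bases before the gene's start in the RefSeq promoter table (assembly GRCr8), 5′ to 3′ on the strand of the gene. Capitals mark each CG dinucleotide, which reads the same on both strands. The Grik3 window is chr5:143052192-143052441 on the plus strand and the Grik2 window is chr20:54415284-54415533 on the minus strand.
Grik3: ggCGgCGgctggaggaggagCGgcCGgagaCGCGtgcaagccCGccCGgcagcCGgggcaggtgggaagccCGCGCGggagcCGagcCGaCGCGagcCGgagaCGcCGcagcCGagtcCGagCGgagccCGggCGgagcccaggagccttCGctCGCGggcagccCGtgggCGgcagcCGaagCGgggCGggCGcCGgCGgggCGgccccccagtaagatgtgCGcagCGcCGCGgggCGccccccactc
Grik2: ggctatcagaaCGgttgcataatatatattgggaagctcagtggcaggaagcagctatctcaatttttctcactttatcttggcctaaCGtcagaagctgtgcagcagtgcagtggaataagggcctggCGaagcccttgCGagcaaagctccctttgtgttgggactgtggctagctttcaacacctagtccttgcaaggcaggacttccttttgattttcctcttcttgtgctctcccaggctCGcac

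The 2 windows differ in composition. The Grik3 window held 41 CG dinucleotides with 81.6% G and C, and 0.980% of the 33469 windows in the table held as many. The Grik2 window held 5 with 49.6% G and C, a number reached by 55.3% of windows. The GC box letters GGGCGG, searched on both strands, were present in the Grik3 window and are in 30.5% of all windows, while TGACG, searched likewise, was present in the Grik2 window and is in 18.2% of all. The table's windows for Grik5, Grik1 and Grik4, whose bases before the start lie within the span of the gene in the RefSeq gene table, unlike those of Grik3 and Grik2, held 10, 8 and 3 CG dinucleotides. The table matched 5 of the 6 genes, all but Grid1. These are descriptions of sequence; no binding or methylation was measured.

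Grik3 had the widest separation of group means. Its CPM was 39.7 in HI1, 81.7 in HI2, 77.1 in HI3 and 85.3 in HI4, against 38.2 in LI1, 58.0 in LI2, 49.8 in LI3 and 57.4 in LI4. HI2, HI3 and HI4 all lay above the highest LI library, while HI1 lay beside LI1 at the low end. HI libraries averaged 70.9 ± 21.1 CPM, against 50.9 ± 9.23 CPM for LI libraries (mean ± SD of 4). On the log2 scale this was a difference of 0.48 ± 0.24 (SE). Its 95% interval ran from -0.049 to 1.01, with an unadjusted p of 0.0707 and an adjusted p of 1.00 by edgeR's quasi-likelihood test. The interval thus reaches from slightly below 0 to about a doubling in HI.

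GluK3 needs more glutamate to open than the other kainate subunits, and in rodent cortex its transcript is strongest in the deep layers. Grik3 varied more than most genes: the SD of its log2 CPM over the 8 libraries was 0.45, against a median of 0.27 over all genes tested, and 16.7% of genes had a larger one. The annotation used in the deposited tables gives Grik3 2 transcripts. The mean transcript length assigned to it was 3594 bases in HI2, HI3, HI4 and LI3, and between 3597 and 3601 bases in the other 4 libraries; the reads of each transcript were not analysed here. Without LI2, the library with high oligodendrocyte and striatal genes, the log2 fold change of Grik3 was 0.55.

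Grik2 encodes GluK2, a main pore-forming kainate subunit of forebrain principal neurons, whose transcript is recoded by RNA editing at a site in the pore. Grik2 stood at 44.8, 46.0, 41.2 and 48.8 CPM in HI1 to HI4, against 40.5, 40.9, 43.5 and 33.9 CPM in LI1 to LI4. The groups overlapped, since LI3 lay above HI3, and LI4 was the lowest of the 8. The difference was 0.19 ± 0.12 on the log2 scale (SE), with a 95% interval of -0.077 to 0.45 and an adjusted p of 1.00 by edgeR's quasi-likelihood test. Without LI4 it was 0.11.

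Grik1 encodes GluK1, which in cortex is found largely in GABA interneurons. It was the least counted of the 6, with 80 to 135 reads per library. Its CPM was 13.5, 13.2, 13.7 and 16.8 in HI1 to HI4, against 13.5, 13.0, 17.2 and 14.1 in LI1 to LI4. The highest values were 1 library in each group, HI4 and LI3. HI minus LI came to -0.016 ± 0.15 (log2, SE), with a 95% interval of -0.36 to 0.32 (edgeR's quasi-likelihood adjusted p = 1.00). The 6 inhibitory neuron marker genes summed to 594 to 686 CPM in HI and 673 to 885 CPM in LI, and their part in the level of Grik1 was not tested.

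**Figure D2:**
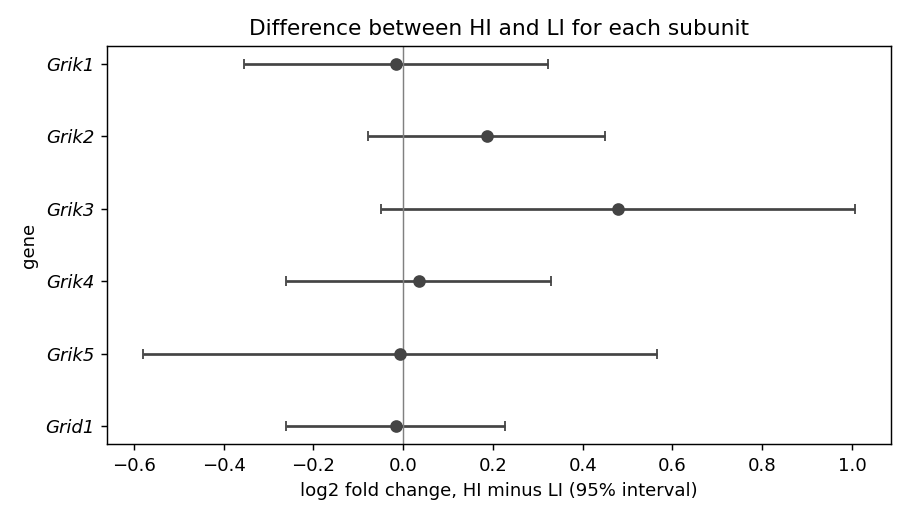
Log2 fold change, HI minus LI, of each subunit gene with its 95% interval from edgeR's quasi-likelihood fit (4 HI and 4 LI libraries). All 6 intervals include 0; that of Grik3 runs from -0.049 to 1.01 and that of Grik5 from -0.58 to 0.57.

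The 2 high-affinity subunit genes had nearly equal group means. Grik4, known in rodents for its high level in hippocampal CA3 cells, stood at 44.8, 46.9, 42.5 and 34.7 CPM in HI1 to HI4, against 42.9, 43.5, 35.1 and 43.4 CPM in LI1 to LI4. Again 1 library of each group departed from the rest, HI4 and LI3, here on the low side. HI minus LI was 0.034 ± 0.13 (log2, SE), with a 95% interval of -0.26 to 0.33 (edgeR's quasi-likelihood adjusted p = 1.00).

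Grik5, whose product GluK5 joins GluK2 in most forebrain kainate receptors, varied about as much as Grik3, with an SD of log2 CPM of 0.42. It stood at 275, 342, 255 and 153 CPM in HI1 to HI4, against 303, 318, 168 and 239 CPM in LI1 to LI4. HI4 and LI3 were the lowest, and HI2 and LI2 the highest. HI libraries averaged 256 ± 78.1 CPM, against 257 ± 68.5 CPM for LI libraries (mean ± SD of 4), and the log2 fold change was -0.0072 ± 0.26 (SE). The 95% interval, -0.58 to 0.57, was the widest of the 6, although Grik5 had the most reads, 1149 to 2915 per library. By edgeR's quasi-likelihood test the adjusted p was 1.00. Without HI4 the log2 fold change was 0.17 and without HI2 it was -0.18.

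The order of the libraries by Grik5 was almost their order by ribosomal RNA content. From low to high, the libraries ran HI4, LI3, LI4, HI3, HI1, LI1, LI2 and HI2 by Grik5 CPM, and HI4, LI3, LI4, HI3, LI1, HI1, LI2 and HI2 by ribosomal RNA share. The orders differ by the exchange of HI1 and LI1, and 173 of 11631 genes, or 1.49%, followed the ribosomal RNA order at least as closely. Grik4 followed it less closely, and 6.11% of genes did so at least as closely as Grik4. Grik1 ran nearly in the reverse order: LI2, HI2, LI1, HI1, HI3, LI4, HI4 and LI3 from low to high. Of all genes tested, 96.2% followed the ribosomal RNA order at least as closely as Grik1. For Grik2, Grik3 and Grid1 that percentage was 54.9%, 56.7% and 66.7%. In a fit that took the ribosomal RNA share into account as a covariate, the log2 fold change of Grik5 was -0.24 (edgeR's quasi-likelihood adjusted p = 0.733), and without HI4 and LI3 together it was 0.017. HI4 also stood apart in the slope of centred log2 CPM on log2 transcript length over all genes tested. It was 0.132 in HI4, against -0.0836 to 0.00898 in the other libraries. With this length trend removed, the log2 fold change of Grik5 was -0.071. RNA quality was not among the values used here, and its part in the levels of Grik5, Grik4 and Grik1 was not tested.

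**Figure D3:**
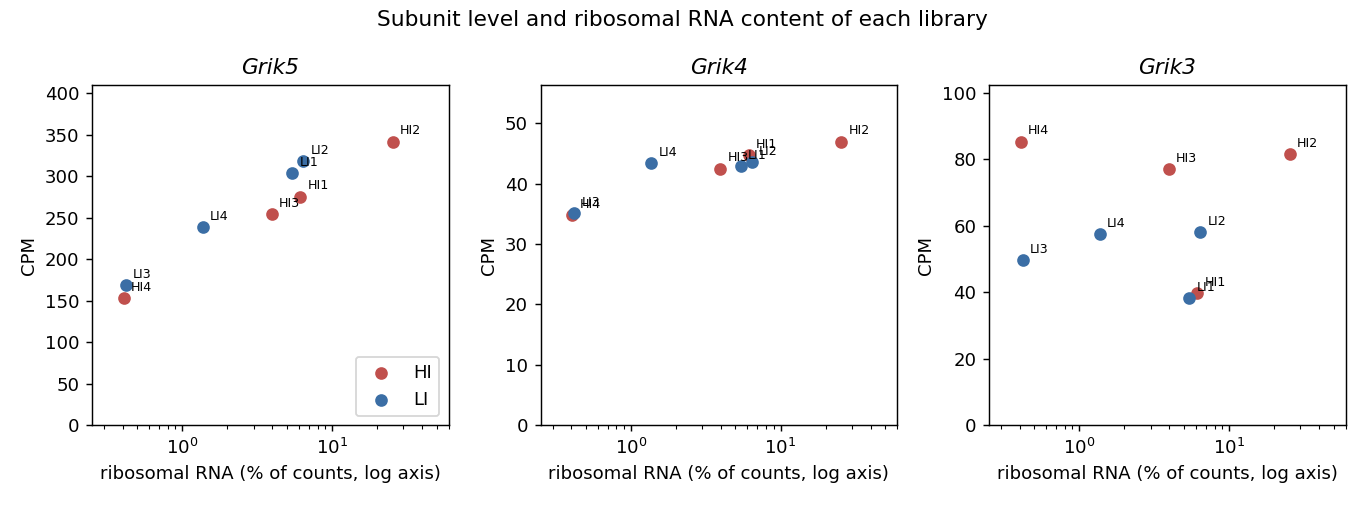
CPM of Grik5, Grik4 and Grik3 in each library against the share of its counts that were ribosomal RNA (log axis); red points are HI and blue points LI libraries. Grik5 runs from 153 CPM in HI4, with 0.406% ribosomal RNA, to 342 CPM in HI2, with 25.5%, whereas Grik3 is lowest in LI1 and HI1, which lie in the middle of the range.

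Grid1 was the steadiest of the 6. It stood at 68.4, 78.2, 69.4 and 79.1 CPM in HI1 to HI4, against 65.2, 77.7, 80.02 and 75.4 CPM in LI1 to LI4. The groups covered nearly the same range, and 93.6% of all genes tested had a larger SD of log2 CPM over the 8 libraries. Its log2 fold change was -0.016 ± 0.11 (SE), with the narrowest 95% interval of the 6, from -0.26 to 0.23 (edgeR's quasi-likelihood adjusted p = 1.00). The deposited estimates for Grid1 were not whole numbers in 8 of 8 libraries, which happens when some reads are divided between genes, whereas those of Grik3, Grik4 and Grik5 were whole in 8 of 8.

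The make-up of the kainate subunit transcripts was also set by Grik5. As a share of the summed TPM of Grik1 to Grik5, Grik5 held 62.7%, 61.8%, 56.5% and 42.3% in HI1 to HI4, against 66.3%, 64.4%, 50.4% and 58.8% in LI1 to LI4. The share was lowest in HI4 and LI3, the libraries with the least Grik5. Grik4 and Grik5 together made up 66.6% ± 9.34 of the sum in HI libraries, against 71.1% ± 6.38 in LI libraries (mean ± SD of 4). The share of Grik3 was 16.9% ± 6.30 in HI and 12.8% ± 3.08 in LI, with HI4 the highest at 24.7% and LI1 the lowest at 8.70%. The summed TPM of the 5 genes was 250 ± 35.1 in HI and 237 ± 42.6 in LI. These are descriptions without a test, and the groups overlapped in each.

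**Figure D4:**
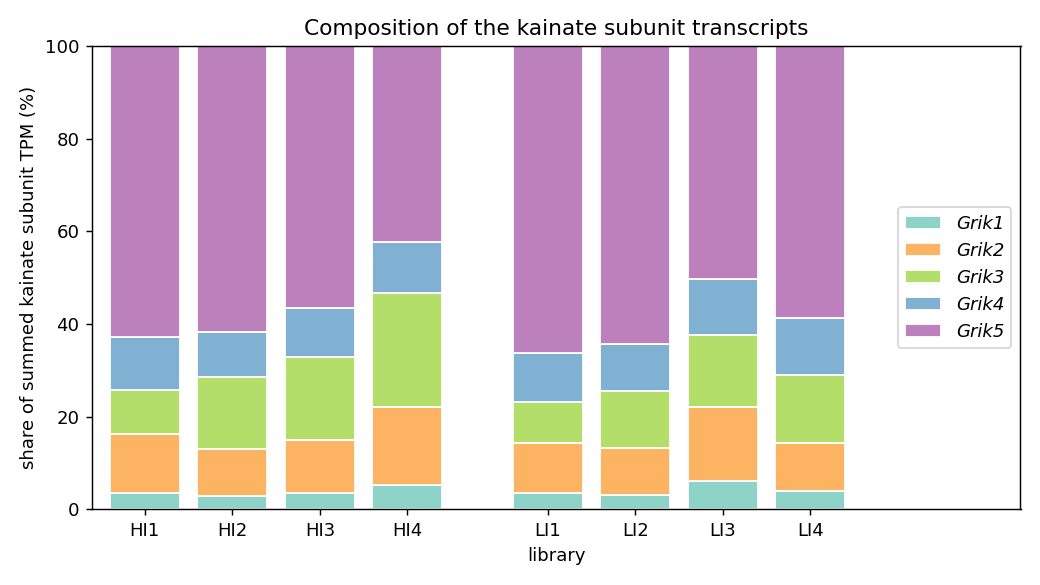
Share of each kainate subunit gene in the summed TPM of Grik1 to Grik5, 1 bar per library, with the 4 HI libraries left of the 4 LI libraries. Grik5 is the largest part of every bar, from 42.3% in HI4 to 66.3% in LI1.

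Likeness between genes was described library by library. Each gene's log2 CPM was centred on its own mean, and a pair was scored by the root mean square difference over the 8 libraries, where 0 means the same centred values. The score grows with the spread of either gene, so that genes of small spread score low together whatever their pattern: the SD of log2 CPM was 0.11 for Grid1, 0.15 for Grik1, 0.16 for Grik2 and Grik4, 0.42 for Grik5 and 0.45 for Grik3. Scores ran from 0.13 for Grik1 and Grid1, both of small spread, to 0.63 for Grik3 and Grik5, the 2 of largest spread, and are not read as an order of shared pattern. Grik4 and Grik5 were 0.26 apart, and both were lowest in HI4 and LI3 and highest in HI2. A shift of a library that is the same in both genes cancels in the score, and only differences between the genes within a library enter it.

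By the same measure over all genes tested, the genes nearest to each subunit were found. Icam5, a cell adhesion gene of forebrain neurons, was among the 2 nearest to Grik5, 0.068 from it, where the median gene was 0.45 away. Icam5 stood at 305, 366, 274 and 147 CPM in HI1 to HI4, against 308, 319, 179 and 264 CPM in LI1 to LI4, with the same low libraries as Grik5. Ttyh3 was 0.029 and Gigyf1 0.030 from Grik4. For Grik3, whose spread is larger, the nearest, Cntnap4, a neurexin-family adhesion gene, and Tenm3, a teneurin, were 0.18 and 0.19 away. Grik2 lay closest to Zfp786 and Sacm1l, Grik1 to Gnl3 and Otud5, and Grid1 to Arl14ep and Pxk, at distances of 0.041 to 0.056.

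Genes that work with these receptors were taken as a list of 28, of which 26 had enough counts to be tested. Of these, 17 had log2 fold changes above 0 and 9 below, against 48.5% and 51.5% of all genes tested. By edgeR's quasi-likelihood test 0 passed an adjusted p of 0.1, against 0% of all genes, and the median log2 fold change was 0.042, against -0.0069 over all genes tested. At an unadjusted p under 0.05 there were 3 of 26, against 4.16% of all genes tested. HI lay wholly above LI in 0 of 26, against 2.31% of all genes, and wholly below in 1 of 26, against 1.14%.

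The auxiliary subunits come first, since they bind kainate receptors directly and slow their closing. Neto1 stood at 85.4, 79.0, 91.3 and 114 CPM in HI1 to HI4, against 85.4, 77.7, 112 and 81.2 CPM in LI1 to LI4, with HI4 and LI3 the highest. Its log2 fold change was 0.051 ± 0.16 (SE). That of Neto2 was 0.19 ± 0.19, with 26.5 to 43.1 CPM in HI and 21.9 to 35.3 CPM in LI.

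Of the secreted organisers, Cbln1, Cbln2 and Cbln4, cerebellins that bind delta receptors, had log2 fold changes of 0.033 ± 0.34, 0.0087 ± 0.24 and -0.072 ± 0.28 (SE). C1ql3, a C1q-like protein that in mice binds postsynaptic kainate receptors at mossy fibre synapses, differed by 0.21 ± 0.15. C1ql1, which binds the adhesion receptor Bai3, was the gene with HI wholly below LI. It stood at 19.9, 20.2, 19.2 and 18.1 CPM in HI1 to HI4, against 22.3, 20.6, 26.2 and 27.0 CPM in LI1 to LI4, a log2 fold change of -0.31 ± 0.13 (SE). HI2 and LI2 were nearly level, and the adjusted p was 1.00 by edgeR's quasi-likelihood test. Cbln3 and C1ql2 had too few counts to be tested, with means of 0.217 and 0.785 CPM in HI and 0.147 and 1.70 CPM in LI.

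Among scaffold genes, Cask, a presynaptic and postsynaptic adaptor, stood at 77.4, 62.0, 79.9 and 92.2 CPM in HI1 to HI4, against 60.6, 57.8, 65.1 and 60.2 CPM in LI1 to LI4. HI2 alone lay within the LI range. The log2 fold change was 0.36 ± 0.13 (SE), and the adjusted p was 1.00 by edgeR's quasi-likelihood test. Grip2, an anchoring protein of glutamate receptors, differed by -0.29 ± 0.17. Adarb1, the editing enzyme of glutamate receptor transcripts, differed by -0.070 ± 0.12.

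For glutamate handling, the smallest unadjusted p in the list was that of Slc1a2, the main astrocytic glutamate transporter, at 0.00914. It stood at 332, 350, 291 and 398 CPM in HI1 to HI4, against 176, 261, 215 and 292 CPM in LI1 to LI4. The groups met where LI4 and HI3 were level, and the log2 fold change was 0.54 ± 0.17 (SE) with an adjusted p of 1.00 by edgeR's quasi-likelihood test. The 5 astrocyte marker genes summed to 1840 to 2506 CPM in HI and 1907 to 2434 CPM in LI. Slc17a7, the vesicular glutamate transporter of cortical excitatory neurons, differed by 0.12 ± 0.20.

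**Figure D5:**
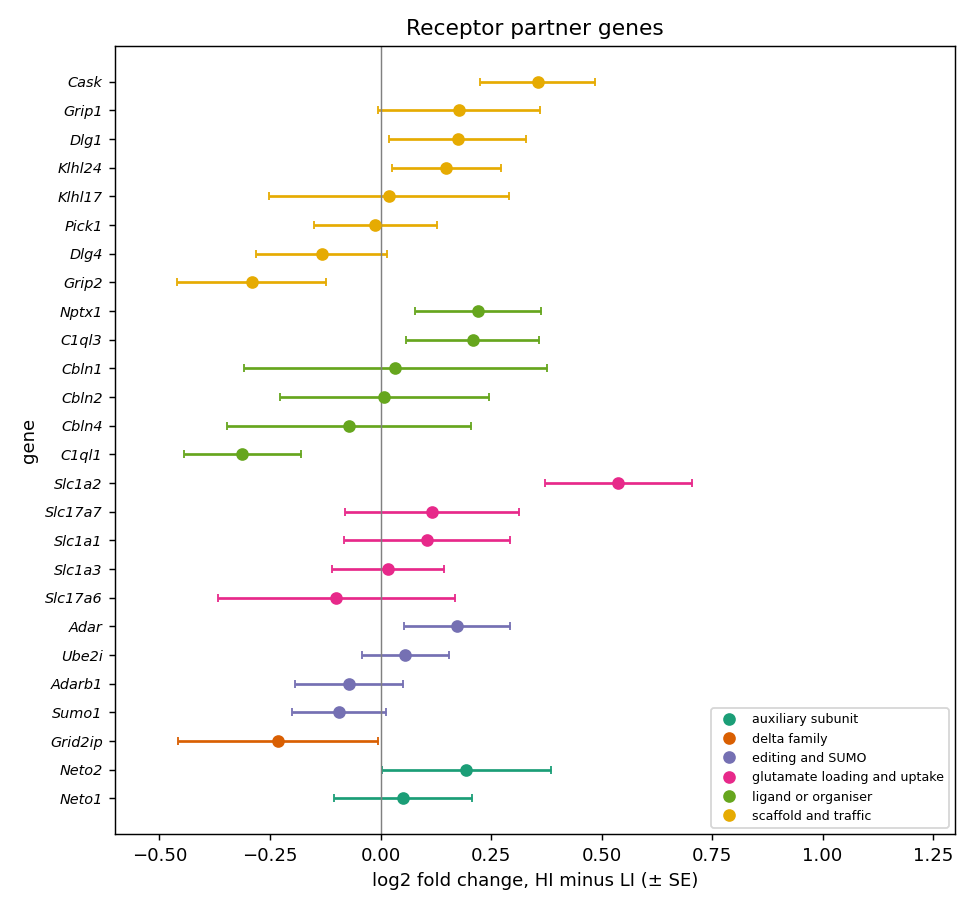
Log2 fold change, HI minus LI, ± SE for the 26 tested genes that work with kainate and delta receptors, coloured by role (4 HI and 4 LI libraries). Slc1a2 lies highest at 0.54 and C1ql1 lowest at -0.31.

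Beside the nearest receptor families, the 6 subunit genes had the smaller median difference, with no test of that contrast. The 4 AMPA receptor subunit genes were above 0 in 4 of 4, against 48.5% of all genes tested, with a median log2 fold change of 0.16 and 0 at an unadjusted p under 0.05, against 4.16% of all genes. The 7 NMDA receptor subunit genes were above 0 in 4 of 7, with a median of 0.15 and 2 at an unadjusted p under 0.05, against 48.5% and 4.16% of all genes. Those 2 were Grin2a at 0.71 ± 0.14 (SE) and Grin2b at 0.52 ± 0.13. In both, HI lay wholly above LI, as in 2.31% of all genes tested. DESeq2 gave both an adjusted p under 0.1 (0.00643 and 0.0970), as it did 0.403% of the 7440 genes for which it gave one. By edgeR's quasi-likelihood test the adjusted p of both was 1.00. Grik3, at 0.48 ± 0.24, differed from them in that its groups overlapped and its DESeq2 adjusted p was 0.999.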

How the data were processed

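Per the file headers, the authors deposited an expected count, a TPM, an FPKM and a transcript length per gene for each of the 8 libraries. The submitters' processing notes name Bowtie2 2.1.0. The quantifier, genome build, annotation and use of strand: not given in the sources used here; reads of overlapping or antisense genes therefore cannot be told apart. Expected counts, of which 10.8% to 11.4% per library were not whole, were rounded; the deposited FPKM values were not used.

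Counts were scaled by TMM and filtered by filterByExpr (minimum count 10, minimum total 15), and HI was compared with LI by the quasi-likelihood test of edgeR 4.0.16 in R 4.3.3 (log2 CPM prior count 2). Each SE was obtained as |log2 fold change| / √F. Fisher's exact test, named in the series' design text, was run as an alternative because summed counts ignore the spread between libraries, as were DESeq2 1.42.0 and limma 3.58.1. The procedure was tested on simulated data. No 2 libraries of the same group agreed within sampling noise; pairs across groups were not compared in this way.

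Named were the 6 subunit genes, 8 fixed partner genes with the 4 others of smallest p, and the 2 genes nearest to each subunit gene; receptor genes beside them were chosen after their values were seen. A few genes of the rule and lists are not reported here. The members and lists were chosen with earlier results of these data known.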

Additional observations from a re-analysis of the deposited data

Results flagged for a closer look

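By Dixon's criterion, 64 sets of 4 libraries were examined (6 subunit and 26 partner genes in 2 groups). In 3 of the 64 sets, 1 library stood far from the other 3 of its group. Chance alone marks about 1 set in 20, so 3 of 64 is near the rate of chance. Grik1 in HI4, at 16.8 CPM, lay above the other HI libraries at 13.2 to 13.7 CPM. Grik4 in LI3, at 35.1 CPM, lay below the other LI libraries at 42.9 to 43.5 CPM. Pick1, a scaffold gene that binds glutamate receptors, in HI4, at 26.6 CPM, lay below the other HI libraries at 34.7 to 35.5 CPM. HI4 and LI3 are the libraries with the least ribosomal RNA, at 0.406% and 0.418%, and the part of that in these values was not tested.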

How the results depend on the processing

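The count of 0 genes past the threshold became 30 with DESeq2 (29 higher and 1 lower in HI), 1 with edgeR's exact test and 6596 with Fisher's exact test on summed counts, which takes no account of the spread between libraries and uses library totals. Fisher's test also called 3 of the 6 subunit genes, where it called 6596 of all 11631 genes tested, so the 3 do not stand out. They were Grik3 at 0.34 and, on the lower side, Grik5 at -0.13 and Grid1 at -0.13 (Fisher adjusted p = 1.04e-12, 1.14e-08 and 0.00588). The other 22 alternatives called 0 of the 6. Grik3 and Grik2 stayed above 0 in all 23 alternatives, at 0.34 to 0.68 and 0.077 to 0.23. Leaving out 1 library at a time gave 0.36 (without LI1) to 0.68 (without HI1) for Grik3, 0.11 to 0.23 for Grik2, -0.10 to 0.078 for Grik1, -0.034 to 0.12 for Grik4, -0.18 to 0.17 for Grik5 and -0.082 to 0.020 for Grid1, so the last 4 had no settled direction. Other changes of sign were Grik4 at -0.083 with library totals only, -0.075 with Fisher's test, -0.042 with the ribosomal RNA covariate and -0.0063 with the length trend removed, Grik1 at 0.047 with that covariate, and Grik5 at 0.017 without HI4 and LI3; the cause was not tested. Library totals in place of TMM moved the median over all genes to -0.12; the partner list's median, 0.042, was -0.065 with them and -0.060 with Fisher's test, and 0.023 (without HI1) to 0.064 (without LI3) with 1 library left out. Replicate numbers are shared between groups, and the correlations of same-numbered deviations from the group means were 0.22, 0.54, -0.053 and 0.059. The highest correlation across groups was 0.78, between HI4 and LI3. Because a strong pattern in a few libraries can govern such correlations, they cannot settle whether the numbers pair the libraries. With the replicate block, 0 genes and 0 subunit genes passed, and Grik3 was at 0.44. By edgeR's quasi-likelihood test the unadjusted p of Grik3 was 0.0103 with the block and 0.00227 without HI1, against 0.0707 in the main fit. With any other single library left out it was 0.0690 to 0.185. The adjusted p was 0.979 with the block and 0.997 without HI1. Grik1, with 80 to 135 reads, is the gene most limited by depth.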
